A study of Homo sapiens with 9 samples.

Results

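The genes described here are 43 genes of the response to low oxygen and of glycolysis, followed in HEK293 cells, a human line derived from embryonic kidney, in which the level of the histone acetyltransferase MOF (gene KAT8) was raised or lowered. A gene was counted as a member if at least 1 probe set of the array was annotated to its symbol alone, and its probe set of highest mean signal over the 9 arrays was used. That rule found 42 of the 43 genes among the 19775 genes with such a probe set. Carbonic anhydrase CA9 was the gene without one and was not analysed here. All 42 members passed the filter on dim probe sets, as did 12036 genes of the whole series. Member signals ran from 389 (EGLN3) to 84203 (LDHA), and 35 of the 42 lay among the brightest 25% of all probe sets on the array.

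The study measured total RNA on 9 arrays, 3 for each of 3 groups of the same line grown in serum-containing medium. Wild type cells (Wild type) had no treatment, overexpression cells (Over Expression) were transfected with plasmids that encode hMOF, and knockdown cells (Knock Down) received siRNA against hMOF. The oxygen level, the time after transfection and the promoter of the plasmid were not given in the sources used here. MOF acetylates lysine 16 of histone H4. The untreated cells are the only control among the 9 arrays, so the effect of transfection and that of MOF cannot be told apart in a comparison with wild type, and both such comparisons use the same 3 wild type arrays. Nothing in the labels says that the replicates came from separate cultures, and the p-values reflect only how far these arrays differ, which may be technical.

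The hypoxia-inducible factors (HIF) are transcription factors built from an oxygen-labile alpha subunit (HIF1A or EPAS1) and the stable partner ARNT. When oxygen is present, the prolyl hydroxylases EGLN1 and EGLN3 modify the alpha subunit and the VHL ubiquitin ligase marks it for destruction, so the factor is controlled mainly at the protein level, which arrays do not measure. HIF binds short sites with the core ACGTG or GCGTG and raises genes for glucose uptake, glycolysis, lactate production, angiogenesis and mitophagy. HEK293 cells, like many transformed lines, run glycolysis in ordinary culture, and many of these genes also answer to other stress and growth signals.

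After MOF knockdown, 17 of the 42 genes rose against wild type and 1 fell, where 6.82% of all probe sets tested were called higher and 8.89% lower. The members were chosen with earlier results of these data known. The rises reached from the sugar transporter SLC2A3 through enzymes of glycolysis to the stress regulators BHLHE40, ANKRD37 and DDIT4. Changes were moderate, from 1.19-fold for PGAM1 and LDHA to 2.04-fold for BHLHE40. Transcripts of HIF1A, EPAS1, ARNT, VHL, EGLN1 and EGLN3 had no call, though HIF1A was called lower with the replicate number as a block (adjusted p = 0.0285). After overexpression VEGFA was called higher (limma adjusted p = 0.0491) and DDIT4 lower (0.0469). Over all probe sets tested 0.319% were called higher and 0.157% lower. With 1 array left out, the VEGFA call ended in 5 of 6 fits and the DDIT4 call in all 6.

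Promoter sequences are shown for 6 genes whose rise after knockdown passed the threshold whichever single array was left out, to show where the HIF core stands in them, if at all. Each is the stretch of 250 bases before the most upstream transcription start held for the gene in the RefSeq promoter reference (GRCh38.p14), in the direction of the gene. Matches to ACGTG or GCGTG on either strand are in capitals, so that a match on the other strand reads CACGT or CACGC and a palindromic CACGTG counts as 2. The windows are chr3:4979187-4979436 (plus strand), chr4:185396591-185396840 (plus), chr10:72273674-72273923 (plus), chr10:73096867-73097116 (minus), chr2:86441121-86441370 (plus) and chr12:6867281-6867530 (plus). Whether another annotated transcript of the gene starts inside a window was not checked.
BHLHE40: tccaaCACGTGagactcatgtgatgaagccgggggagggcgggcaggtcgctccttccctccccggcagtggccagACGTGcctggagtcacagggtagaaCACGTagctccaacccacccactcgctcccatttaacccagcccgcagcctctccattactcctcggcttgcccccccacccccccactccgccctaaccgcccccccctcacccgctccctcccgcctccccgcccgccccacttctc
ANKRD37: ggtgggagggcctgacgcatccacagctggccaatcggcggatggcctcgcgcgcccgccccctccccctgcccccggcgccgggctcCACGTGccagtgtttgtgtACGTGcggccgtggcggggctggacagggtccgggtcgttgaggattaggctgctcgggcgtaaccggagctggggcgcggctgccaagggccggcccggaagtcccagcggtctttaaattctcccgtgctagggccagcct
DDIT4: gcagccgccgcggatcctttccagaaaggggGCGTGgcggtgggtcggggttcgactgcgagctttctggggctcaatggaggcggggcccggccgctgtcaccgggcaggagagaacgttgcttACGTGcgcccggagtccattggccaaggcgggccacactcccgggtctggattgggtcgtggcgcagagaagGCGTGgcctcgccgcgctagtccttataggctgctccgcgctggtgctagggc
P4HA1: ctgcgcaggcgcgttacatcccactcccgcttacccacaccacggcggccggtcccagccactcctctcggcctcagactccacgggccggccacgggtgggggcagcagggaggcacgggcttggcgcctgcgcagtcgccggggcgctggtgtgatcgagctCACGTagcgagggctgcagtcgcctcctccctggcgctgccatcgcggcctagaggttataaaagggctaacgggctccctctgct
KDM3A: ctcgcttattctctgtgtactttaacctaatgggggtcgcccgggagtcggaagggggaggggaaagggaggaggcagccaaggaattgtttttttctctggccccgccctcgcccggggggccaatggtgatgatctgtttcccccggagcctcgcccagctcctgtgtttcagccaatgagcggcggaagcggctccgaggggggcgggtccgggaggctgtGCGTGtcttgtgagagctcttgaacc
TPI1: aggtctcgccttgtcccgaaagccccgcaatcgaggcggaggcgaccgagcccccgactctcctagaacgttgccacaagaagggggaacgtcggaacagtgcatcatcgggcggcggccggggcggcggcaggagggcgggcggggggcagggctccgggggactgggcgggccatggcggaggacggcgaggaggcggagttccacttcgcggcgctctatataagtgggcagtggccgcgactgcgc
BHLHE40 had 4 matches, ANKRD37 and DDIT4 had 3 each, P4HA1 and KDM3A had 1 each, and the TPI1 window had 0. The reference table held promoters for 36 of the 42 members, without VHL, SLC2A3, BNIP3L, VEGFA, NDRG1 and HILPDA. Of those 36, 24 (66.7%) held either core, against 43.1% of 27305 promoters of the same length. Among members that rose after knockdown, 11 of 14 (78.6%) held either core, and among members without a call in that comparison 13 of 22 (59.1%) did. ACGTG, with or without GCGTG, was in 9 of the 14 (64.3%), in 7 of the 22 (31.8%) and in 18.6% of all promoters. For GCGTG, with or without ACGTG, the counts were 5 of the 14 (35.7%) and 10 of the 22 (45.5%), against 31.9% of all promoters. Member promoters were also richer in G and C, with a median of 69.2% against 57.6% over all promoters, and the part of base composition in these shares was not tested. The members were listed for their part in hypoxia and glycolysis, and those without a call include HIF subunits and their regulators. These shares are therefore a description and not a test. A match is a description of letters and not a measured binding site.

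**Figure D1:**
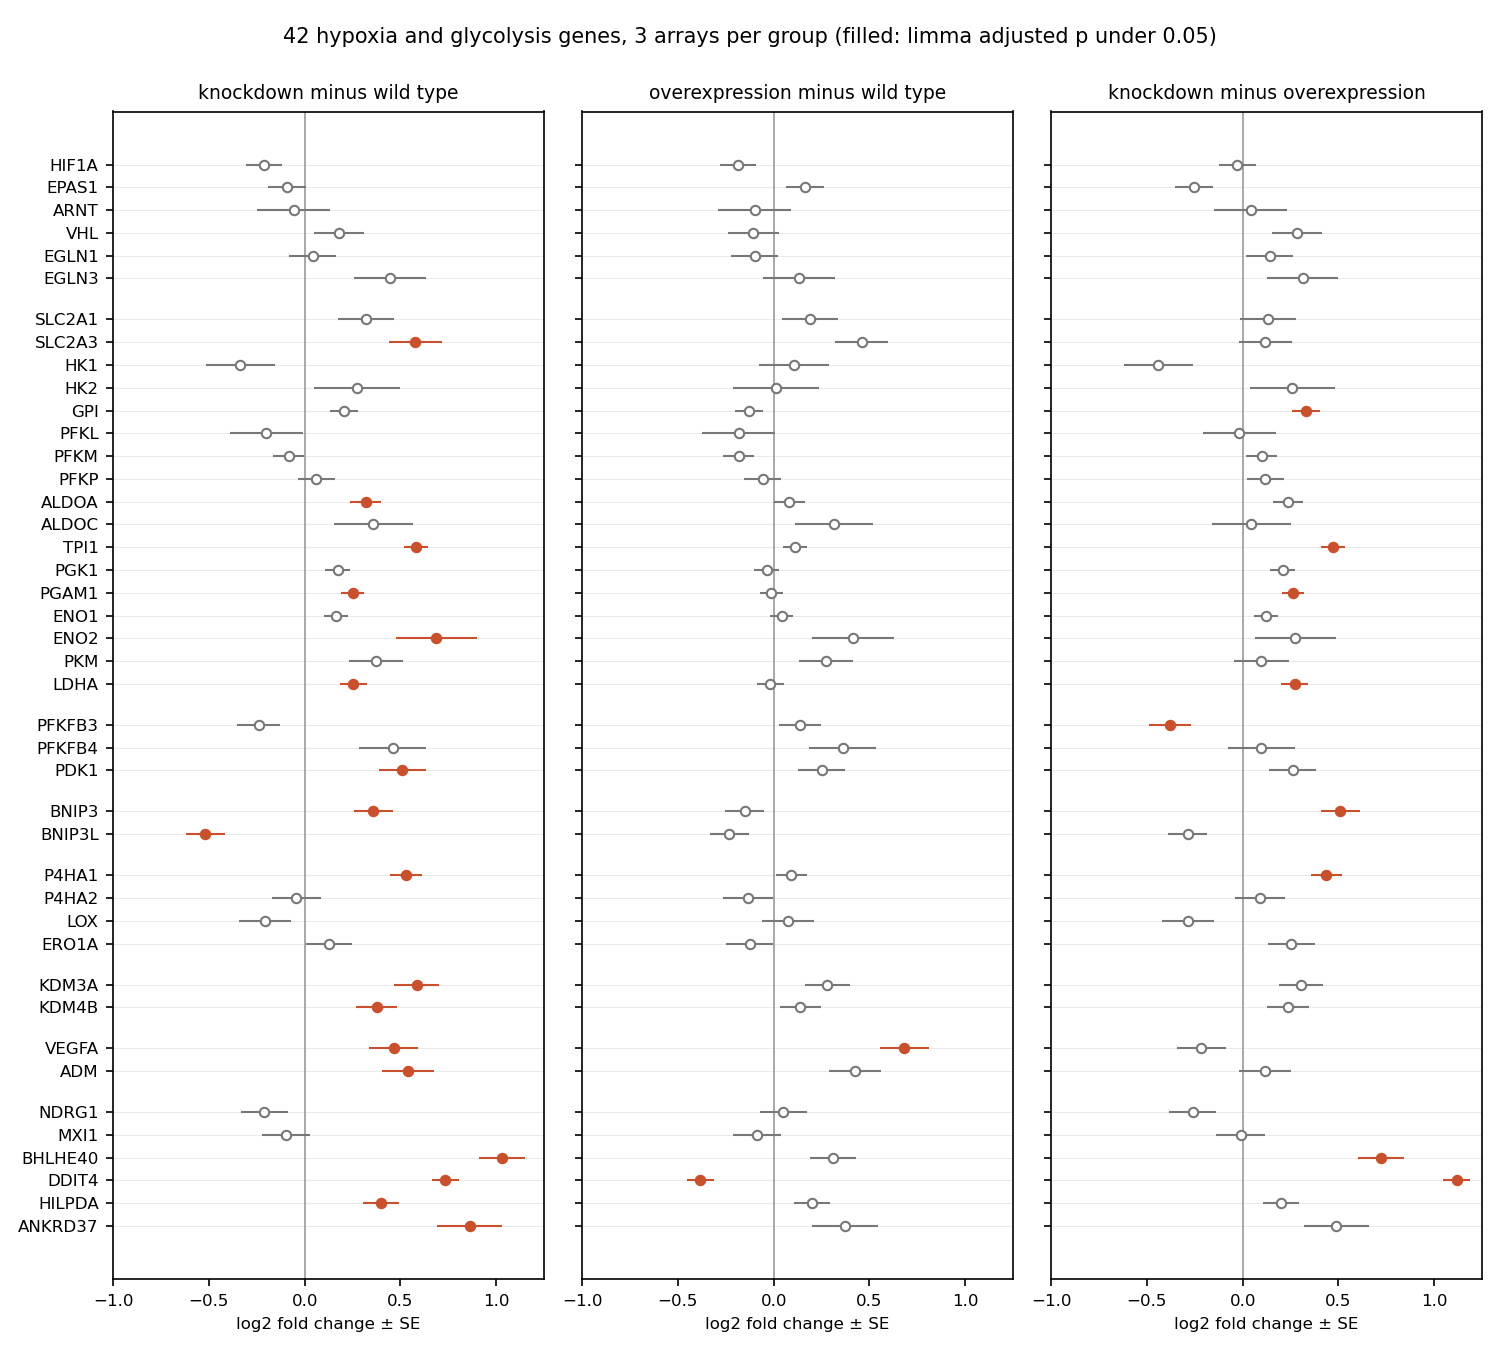
Log2 fold change (x axis) of each of the 42 genes (rows, grouped by role) for knockdown minus wild type, overexpression minus wild type and knockdown minus overexpression; points are estimates from 3 arrays a group, bars are ± 1 SE, and filled points passed limma's adjusted p threshold. Most points of the left panel lie right of 0, with 18 filled, whereas the middle panel has 2 filled points and the right panel has 9.

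The target checked the labels. KAT8 signals were 2909.5, 3797 and 3249 on the wild type arrays, 4594, 4727 and 4763 on the overexpression arrays and 432, 706 and 517 on the knockdown arrays. The knockdown arrays were far below the others and kept 16.6% of the wild type mean, a log2 difference of -2.61 (SE 0.17, 6.10-fold lower, limma adjusted p = 4.72e-05), so some transcript was left although the source labels call expression knocked out. The overexpression arrays all lay above the wild type arrays, but the difference of 0.51 (SE 0.17, 1.42-fold higher, limma adjusted p = 0.259) did not pass the threshold. For each contrast the two-sided permutation test (exact) reached p = 0.1, the smallest value possible with 3 against 3 arrays. Signals are the authors' MAS5 values, scaled so that every array had the same 2% trimmed mean of 1500.2, so fewer cells of a type and less RNA per cell cannot be told apart, and replicate arrays correlated at r of 0.973 to 0.985. The poly-A labelling controls (24 probe sets) were 2.22-fold brighter on replicates 2 and 3 than on replicate 1 in all groups. The ACTB 3'/5' ratio was 1.39 to 1.43 on wild type, 1.18 to 1.38 on overexpression and 1.21 to 1.31 on knockdown arrays, while that of GAPDH overlapped between groups (0.981 to 1.11), and the part of RNA quality in the results was not tested. The genes NEFL, NEFM, EYA1, LIN28B and PAX2, known in HEK293 cells, were all measured above the filter. The summed signal of 6 markers of blood, fibroblasts, endothelium and hepatocytes was 2879 to 3438 on wild type, 2890.2 to 3649 on overexpression and 2155 to 2568 on knockdown arrays, mostly from the fibroblast collagen COL1A1, with PTPRC and ALB under the filter. None of these markers is at 0 on an array, and their part in the results was not tested.

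The first question was how the whole group stood after knockdown. Calls use an adjusted p under 0.05 from limma over all 27307 probe sets tested. The 17 higher members were 40.5% of the 42, where 6.82% of all probe sets tested, and 8.48% of the brightest 25%, were called higher. The 1 lower member was 2.38%, against 8.89% of all and 11.5% of the brightest 25% called lower. Because the members were chosen with earlier results of these data known, these shares are a description and not a test of the group. The median log2 difference of the members was 0.26, against 0.01 over all probe sets tested, with 30 members above 0 and 12 below. All 3 knockdown arrays lay above all 3 wild type arrays for 25 members (59.5%, against 16.9% of all probe sets tested) and below them for 5 (18.3% of all). At an unadjusted p under 0.05 there were 26 members, where 30.7% of all probe sets tested were. The count fell from 18 to 8 without wild type array 2 and to 10 without wild type array 3, knockdown array 2 or knockdown array 3 (arrays carry their replicate number). It was 12 with no filter on dim probe sets and 11 without limma's intensity trend.

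The group means took the order wild type, overexpression, knockdown from low to high in 19 members (45.2%), against 20.6% of all probe sets tested. The order overexpression, wild type, knockdown held for 10 members, among them DDIT4, BNIP3, GPI, PGK1, PGAM1 and LDHA (23.8%, against 18.2% of all). VEGFA alone had its highest mean on the overexpression arrays and its lowest on wild type. Of the other 12 members, 5 had the knockdown mean lowest and the overexpression mean highest (EPAS1, HK1, PFKFB3, LOX and NDRG1) and 4 had the order knockdown, overexpression, wild type (HIF1A, PFKL, BNIP3L and MXI1). In ARNT, PFKM and P4HA2 the overexpression mean was lowest and the wild type mean highest. Of the 42 members, 22 had no call in any comparison, and the order of their means is a description only.

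Transcripts of the HIF subunits and their regulators had no call in any comparison without the replicate block. HIF1A, the oxygen-labile subunit of HIF-1, gave 20194, 22396 and 21853 on the wild type arrays, 17127, 21687 and 18103 on the overexpression arrays and 18373, 19824 and 17406 on the knockdown arrays. The knockdown arrays were all below the wild type arrays, with a log2 difference of -0.21 (95% interval -0.42 to -0.00, limma adjusted p = 0.156), and with the replicate number as a block the adjusted p was 0.0285. EPAS1, the alpha subunit of HIF-2, had means of 2831 ± 68.9 on wild type, 3167 ± 71.5 on overexpression and 2659 ± 246 on knockdown arrays (SD, n = 3 each). Its knockdown difference from wild type was -0.09 (95% interval -0.31 to 0.12, limma adjusted p = 0.565). Its difference from overexpression was -0.26 (95% interval -0.47 to -0.04, limma adjusted p = 0.109), with an adjusted p of 0.0453 under the replicate block. The limma adjusted p of that difference was 0.0366 with a term for the replicate 1 arrays and 0.0464 with replicates 2 and 3 alone. The shared partner ARNT, at 2385 ± 304, 2258 ± 564 and 2309.9 ± 447 in the same order, differed by -0.06 (95% interval -0.48 to 0.36, limma adjusted p = 0.87) between knockdown and wild type. The ubiquitin ligase component VHL was at 1616 ± 199, 1497 ± 114 and 1825 ± 182, a knockdown difference of 0.18 (95% interval -0.11 to 0.47, limma adjusted p = 0.396). The main oxygen-sensing hydroxylase EGLN1 was at 11488 ± 1307, 10744 ± 1407 and 11817 ± 1194, a knockdown difference of 0.04 (95% interval -0.23 to 0.31, limma adjusted p = 0.85).

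EGLN3, a hydroxylase that is itself a HIF target, gave 482, 609.9 and 389 on the wild type arrays, 494, 539 and 566 on the overexpression arrays and 645, 671 and 669 on the knockdown arrays. All knockdown arrays were above both other groups, yet the log2 difference from wild type of 0.45 (95% interval 0.04 to 0.85, limma adjusted p = 0.131) did not pass the threshold. In limma's fit of all 9 arrays without added terms, 0 of these 6 regulators had a call in any comparison. In it, 2 (HIF1A and EGLN3) were at an unadjusted p under 0.05 for knockdown against wild type. There were 0 for overexpression and 1 for knockdown against overexpression. No other tool was run. The intervals for ARNT and VHL still allow changes of the size seen in several called members.

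**Figure D2:**
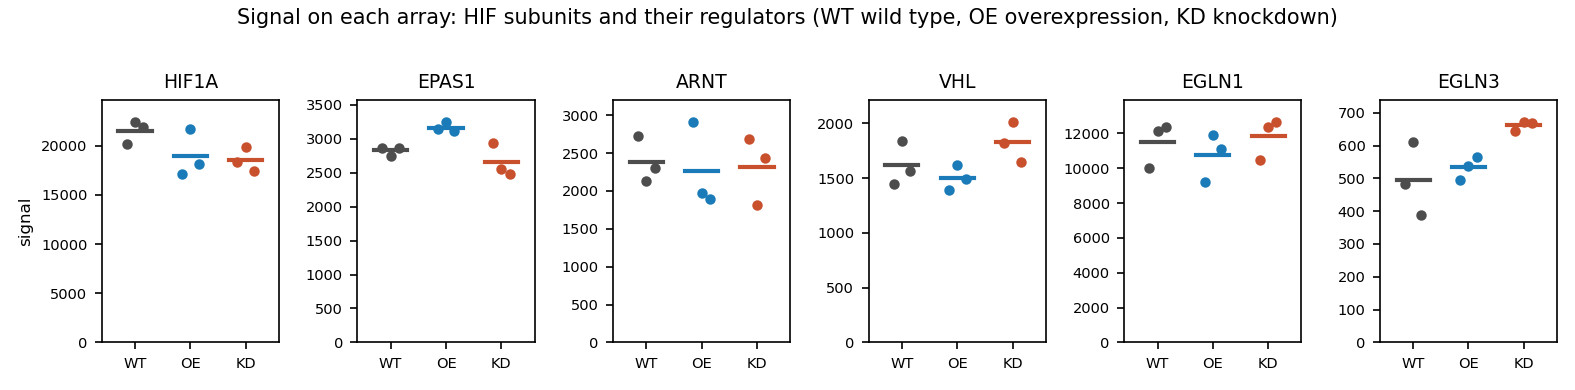
Signal (y axis, linear, from 0) of the HIF subunits HIF1A, EPAS1 and ARNT and the regulators VHL, EGLN1 and EGLN3 on each array, with replicates 1 to 3 from left to right in each group and the bar at the mean (WT wild type, OE overexpression, KD knockdown, n = 3 each). HIF1A knockdown arrays lie below the wild type arrays, EPAS1 overexpression arrays above both other groups, VHL knockdown arrays just above the overexpression arrays and EGLN3 knockdown arrays above both other groups, while the groups overlap for ARNT and EGLN1.

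Glucose uptake and glycolysis rose in part after knockdown, with 6 of 17 genes called higher and 0 lower against wild type (35.3% higher, where 6.82% of all probe sets tested were called higher and 8.89% lower; 11 at an unadjusted p under 0.05 in either direction; median log2 difference 0.25). The called enzymes were aldolase (ALDOA), triose phosphate isomerase (TPI1), phosphoglycerate mutase (PGAM1), enolase (ENO2) and lactate dehydrogenase (LDHA), beside the transporter SLC2A3. TPI1, which interconverts the 2 triose phosphates, gave 42205, 44114 and 44785 on the wild type arrays, 49722, 45003 and 46934 on the overexpression arrays and 63460.4, 64720.0 and 68102 on the knockdown arrays. The knockdown arrays were far above both other groups, and the overexpression arrays lay just above the wild type arrays. The log2 difference was 0.58 (SE 0.06, 1.50-fold higher, limma adjusted p = 0.000293) against wild type and 0.47 (SE 0.06, 1.39-fold higher, limma adjusted p = 0.000984) against overexpression, and both calls held without any 1 array. Overexpression and wild type differed by 0.11 (SE 0.06, adjusted p = 0.508). ALDOA, the aldolase that splits fructose bisphosphate, gave 50326, 58789.8 and 61573 on the wild type arrays, 56583, 63056 and 60618 on the overexpression arrays and 68142, 74040.1 and 70166 on the knockdown arrays. Its knockdown arrays were above all others, a log2 difference from wild type of 0.32 (SE 0.08, 1.25-fold higher, limma adjusted p = 0.0221). Its difference from overexpression was 0.24 (SE 0.08, adjusted p = 0.0729), with an adjusted p of 0.0119 under the replicate block.

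PGAM1, which moves the phosphate of phosphoglycerate, gave 49616, 51038 and 55356 on the wild type arrays, 51942, 51378 and 51206 on the overexpression arrays and 61508, 62759 and 61086 on the knockdown arrays. Knockdown was higher by 0.25 (SE 0.06, 1.19-fold higher, limma adjusted p = 0.0163) against wild type and by 0.26 (SE 0.06, 1.20-fold higher, limma adjusted p = 0.0136) against overexpression, with no overlap of the knockdown arrays with either group. LDHA, which turns pyruvate into lactate, gave 68972, 69185 and 67430.4 on the wild type arrays, 61224, 74422 and 68093 on the overexpression arrays and 84203, 82276 and 78913 on the knockdown arrays. Its knockdown arrays were again the highest, by 0.25 (SE 0.07, 1.19-fold higher, limma adjusted p = 0.0339) against wild type and 0.27 (SE 0.07, 1.21-fold higher, limma adjusted p = 0.0268) against overexpression. ENO2, the neuronal form of enolase, gave 3710.1, 2732 and 2103 on the wild type arrays, 4857, 2919 and 3558 on the overexpression arrays and 4946, 4135 and 4365 on the knockdown arrays. Its wild type arrays were spread widely but stayed below the knockdown arrays, a log2 difference of 0.69 (SE 0.21, 1.61-fold higher, limma adjusted p = 0.0494).

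SLC2A3 (GLUT3), a high-affinity glucose transporter, gave 639.7, 630.0 and 594 on the wild type arrays, 902, 836 and 826 on the overexpression arrays and 863, 888 and 1039.5 on the knockdown arrays. Both transfected groups were above wild type without overlap, and the knockdown difference was 0.58 (SE 0.14, 1.49-fold higher, limma adjusted p = 0.0179) while the overexpression difference of 0.46 (SE 0.14, adjusted p = 0.22) did not pass. The main transporter SLC2A1 (GLUT1) differed by 0.32 (SE 0.15, adjusted p = 0.162) after knockdown. GPI, which converts glucose phosphate to fructose phosphate, gave 17995, 17941 and 17627 on the wild type arrays, 17141, 15351 and 16593 on the overexpression arrays and 20863, 19232 and 21636 on the knockdown arrays. Knockdown exceeded overexpression by 0.33 (SE 0.07, 1.26-fold higher, limma adjusted p = 0.0128); against wild type the difference was 0.20 (SE 0.07, adjusted p = 0.0832), with 0.0241 in the fit with the replicate block.

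**Figure D3:**
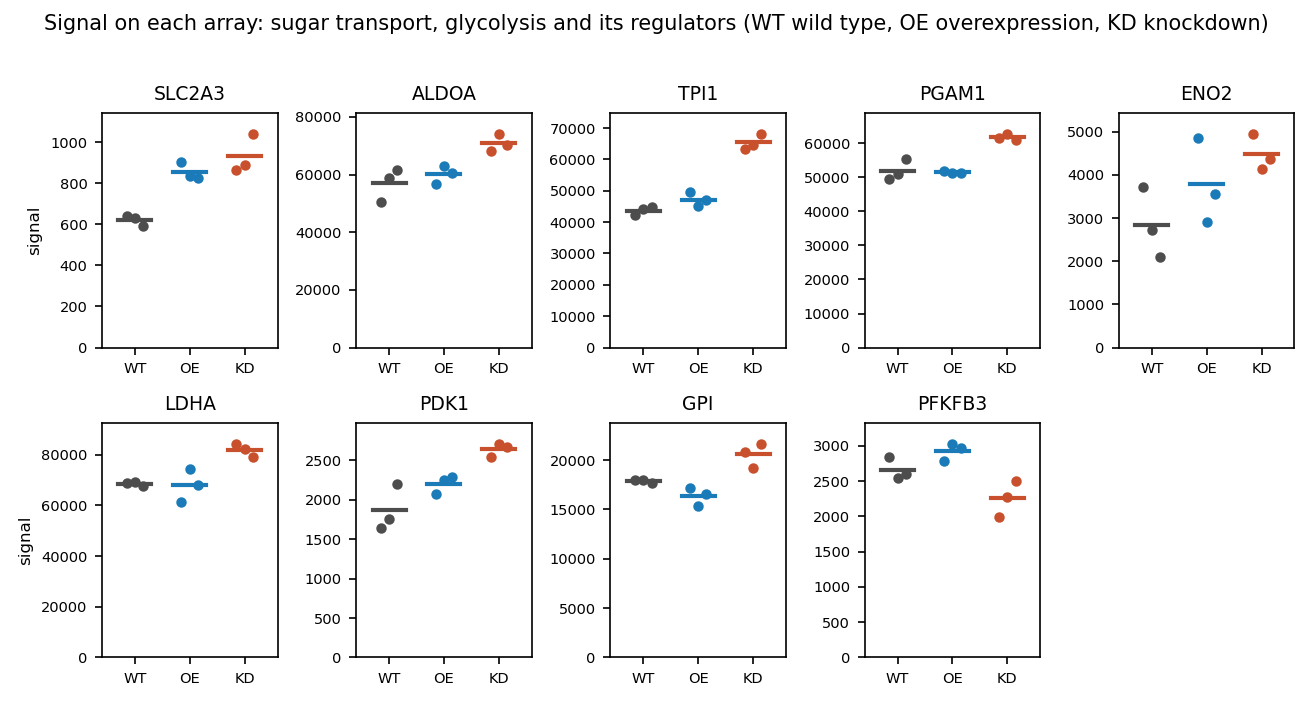
Signal (y axis, linear, from 0) on each array of SLC2A3, 5 glycolytic enzymes that rose after knockdown, PDK1, GPI and PFKFB3, with replicates 1 to 3 from left to right in each group and the bar at the mean (WT wild type, OE overexpression, KD knockdown, n = 3 each). Knockdown arrays lie above wild type arrays in every panel except that of PFKFB3, where they lie lowest, and for SLC2A3 and TPI1 the overexpression arrays are also above wild type.

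Several enzymes of the same pathway had no call on the probe set used. After knockdown against wild type, PGK1, which makes the first ATP of glycolysis, differed by 0.17 (SE 0.06, adjusted p = 0.094), ENO1, the common enolase, by 0.16 (SE 0.06, adjusted p = 0.0916), and PKM, the pyruvate kinase of growing cells, by 0.37 (SE 0.14, adjusted p = 0.1). With the replicate block the adjusted p of PGK1 was 0.0443 and that of PKM was 0.0065. PGK1 differed by 0.21 (SE 0.06, adjusted p = 0.052) between knockdown and overexpression, with 0.0195 under the block. ALDOC, a second aldolase, differed from wild type by 0.36 (SE 0.20, adjusted p = 0.264). The 3 phosphofructokinase subunits, which catalyse the committed step, were at -0.20 (SE 0.19, adjusted p = 0.52) for PFKL, -0.08 (SE 0.08, adjusted p = 0.535) for PFKM and 0.06 (SE 0.10, adjusted p = 0.719) for PFKP. The hexokinases, which trap glucose in the cell, were at -0.34 (SE 0.18, adjusted p = 0.244) for HK1 and 0.27 (SE 0.22, adjusted p = 0.45) for HK2. HK2 had other probe sets of its own, and the second brightest fell by 1.11 on the log2 scale (SE 0.28, adjusted p = 0.0215), so the direction for HK2 depends on the probe set. ENO1 was called higher on its second brightest probe set, at 0.26 (SE 0.06, adjusted p = 0.0142), and on the brightest after quantile normalization (0.0232) and with a term for the replicate 1 arrays (0.0453). Within the 15 enzymes from HK1 to LDHA, knockdown against wild type gave 5 higher (33.3%) and 0 lower calls, where 6.82% of all probe sets tested were higher and 8.89% lower. Knockdown against overexpression gave 4 higher (26.7%) and 0 lower, where 5.75% of all were higher and 8.76% lower.

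Part of the glycolysis calls for knockdown against wild type ended when 1 array was left out. Such fits hold fewer arrays, and LDHA lost its call whichever of the compared arrays was left out. Its log2 difference stayed between 0.23 and 0.28 in those fits. Arrays carry their replicate number and were left out 1 at a time, and values in parentheses are limma adjusted p. The SLC2A3 call ended without wild type array 2 (0.0527) or 3 (0.0554) or knockdown array 3 (0.0744). For ALDOA it ended without wild type array 2 (0.0517) or knockdown array 2 (0.085) or 3 (0.0598), and with no filter on dim probe sets (0.0615) or without the intensity trend (0.0834). PGAM1 lost it without wild type array 2 (0.0692) or knockdown array 2 (0.0668), and with no filter on dim probe sets (0.0695) or without the intensity trend (0.0892). ENO2 lost it without wild type array 2 (0.127) or 3 (0.16) or knockdown array 1 (0.127), 2 (0.0885) or 3 (0.113), and with no filter on dim probe sets (0.0714) or without the intensity trend (0.0906). LDHA lost it without wild type array 1 (0.0559), 2 (0.0909) or 3 (0.089) or knockdown array 1 (0.091), 2 (0.0986) or 3 (0.0597), and with no filter on dim probe sets (0.109) or without the intensity trend (0.123). Of knockdown against overexpression, the GPI call ended without knockdown array 3 (0.0554), and without the intensity trend (0.0509). The PGAM1 call in that comparison ended without overexpression array 3 (0.053) or knockdown array 2 (0.0597), and with no filter on dim probe sets (0.0606) or without the intensity trend (0.0825). The LDHA call there ended without overexpression array 1 (0.0776) or 3 (0.0769) or knockdown array 1 (0.0744), 2 (0.0854) or 3 (0.051), and with no filter on dim probe sets (0.0915), after quantile normalization (0.0516), with replicates 2 and 3 alone (0.0989) or without the intensity trend (0.11).

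The regulatory kinases went different ways. PDK1 inhibits pyruvate dehydrogenase and so keeps pyruvate out of the mitochondrial citric acid cycle, and it gave 1646, 1756 and 2206 on the wild type arrays, 2080.5, 2251 and 2291 on the overexpression arrays and 2545, 2709.7 and 2677 on the knockdown arrays. The knockdown arrays were above all others, with a log2 difference from wild type of 0.51 (SE 0.12, 1.43-fold higher, limma adjusted p = 0.0185). PFKFB3 makes the activator of phosphofructokinase, and it gave 2839, 2541 and 2601 on the wild type arrays, 2785, 3028 and 2967 on the overexpression arrays and 1992, 2278 and 2505 on the knockdown arrays. Its knockdown arrays were the lowest, with a log2 difference of -0.38 (SE 0.11, 1.30-fold lower, limma adjusted p = 0.0433) against overexpression and -0.24 (SE 0.11, adjusted p = 0.169) against wild type. Its relative PFKFB4 differed from wild type by 0.46 (SE 0.18, adjusted p = 0.1) after knockdown and had an adjusted p of 0.0313 with the replicate block. The PDK1 call ended without wild type array 1 (0.0532) or 2 (0.0734) or knockdown array 2 (0.0656) or 3 (0.0625), and on its second brightest probe set (0.341). The PFKFB3 call ended without overexpression array 1 (0.0559), 2 (0.103) or 3 (0.125) or knockdown array 1 (0.124) or 2 (0.104), and with no filter on dim probe sets (0.0651), after quantile normalization (0.0538), after median centring (0.057), with replicates 2 and 3 alone (0.0598), without the intensity trend (0.0586) or in a fit of only those groups (0.0718).

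The mitophagy receptors BNIP3 and BNIP3L had calls of opposite sign after knockdown. BNIP3, which marks mitochondria for removal, gave 17593, 13871 and 13915 on the wild type arrays, 14242, 13914 and 12516 on the overexpression arrays and 20649, 18867 and 18356 on the knockdown arrays. Knockdown arrays were above all others, by 0.36 (SE 0.10, 1.28-fold higher, limma adjusted p = 0.0374) against wild type and 0.51 (SE 0.10, 1.42-fold higher, limma adjusted p = 0.00832) against overexpression. BNIP3L (NIX), the receptor known from the clearing of mitochondria in red blood cell precursors, gave 6930.1, 8212 and 8088 on the wild type arrays, 5857, 6925 and 7006 on the overexpression arrays and 5159.9, 5619 and 5395 on the knockdown arrays. Its knockdown arrays were below all others, a log2 difference from wild type of -0.52 (SE 0.10, 1.43-fold lower, limma adjusted p = 0.00725) and from overexpression of -0.29 (SE 0.10, adjusted p = 0.0842), the latter with 0.00761 under the replicate block. The BNIP3L call and the BNIP3 call against overexpression held without any 1 array. The BNIP3 call against wild type ended without wild type array 2 (0.14) or 3 (0.12) or knockdown array 1 (0.107), 2 (0.0853) or 3 (0.0692), and with no filter on dim probe sets (0.064), without the intensity trend (0.0887) or in a fit of only those groups (0.0518).

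Among the enzymes of collagen and disulfide maturation, 1 of 4 (25%) was called higher after knockdown against wild type and 0 lower. Over all probe sets tested 6.82% were higher and 8.89% lower. The same gene was the 1 called against overexpression, where 5.75% of all were higher and 8.76% lower. P4HA1, the catalytic subunit of collagen prolyl hydroxylase, gave 6812, 7253 and 6972 on the wild type arrays, 6872, 8087 and 7511 on the overexpression arrays and 9956, 10413 and 10006 on the knockdown arrays. Knockdown arrays stood well apart from both other groups, by 0.53 (SE 0.08, 1.44-fold higher, limma adjusted p = 0.00234) against wild type and 0.44 (SE 0.08, 1.35-fold higher, limma adjusted p = 0.00624) against overexpression, and both calls held without any 1 array. Its paralog P4HA2 differed from wild type by -0.04 (SE 0.13, adjusted p = 0.855), the collagen crosslinking oxidase LOX by -0.21 (SE 0.14, adjusted p = 0.329), and ERO1A, which feeds disulfide bonds in the endoplasmic reticulum, by 0.13 (SE 0.12, adjusted p = 0.525). ERO1A differed from overexpression by 0.25 (SE 0.12, adjusted p = 0.196), with 0.0216 under the replicate block.

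Both histone demethylases among the members were called higher after knockdown against wild type, where 6.82% of all probe sets tested were higher and 8.89% lower. KDM4C, a histone demethylase from the list of other HIF targets, had no call, at -0.26 (SE 0.18, limma adjusted p = 0.369). KDM3A, which removes methyl groups from lysine 9 of histone H3, gave 4919, 4365 and 3949.7 on the wild type arrays, 5839, 5001 and 5199 on the overexpression arrays and 7348, 6678 and 5839 on the knockdown arrays. The groups stepped upward from wild type to overexpression to knockdown, with wild type apart from both and the other ranges meeting at 1 array each, and the knockdown difference from wild type was 0.59 (SE 0.12, 1.50-fold higher, limma adjusted p = 0.00776). That call held without any 1 array. Against overexpression the KDM3A difference was 0.31 (SE 0.12, adjusted p = 0.106), with 0.00822 under the replicate block. KDM4B, which acts on the same lysine, gave 4293, 5061 and 4022 on the wild type arrays, 4378, 4977 and 5364 on the overexpression arrays and 5726, 5792 and 5752 on the knockdown arrays. Its knockdown arrays agreed closely with each other and lay above all others, a difference from wild type of 0.38 (SE 0.11, 1.30-fold higher, limma adjusted p = 0.0396). The KDM4B call ended without wild type array 1 (0.087) or 3 (0.13) or knockdown array 1 (0.0791), 2 (0.107) or 3 (0.102), and with no filter on dim probe sets (0.0593), without the intensity trend (0.072) or on its second brightest probe set (0.223).

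The secreted factors were high in both transfected groups. VEGFA, the main angiogenic growth factor, gave 4288, 3235 and 3389 on the wild type arrays, 6477, 5728 and 5225 on the overexpression arrays and 5512, 4722 and 4744 on the knockdown arrays. All arrays of both transfected groups lay above the wild type arrays, by 0.68 (SE 0.13, 1.60-fold higher, limma adjusted p = 0.0491) for overexpression and 0.46 (SE 0.13, 1.38-fold higher, limma adjusted p = 0.0325) for knockdown. Knockdown and overexpression differed by -0.22 (SE 0.13, adjusted p = 0.292), with 0.0483 under the replicate block. ADM, the vasodilator adrenomedullin, gave 2974, 2052 and 2495 on the wild type arrays, 3312, 3578 and 3113 on the overexpression arrays and 3554, 3921 and 3364 on the knockdown arrays. Its transfected groups also lay above wild type, by 0.54 (SE 0.14, 1.45-fold higher, limma adjusted p = 0.0221) for knockdown and 0.43 (SE 0.14, adjusted p = 0.244) for overexpression, where the latter had no call. The VEGFA call after knockdown ended without wild type array 2 (0.125) or 3 (0.0991) or knockdown array 1 (0.0972), 2 (0.0654) or 3 (0.0684), and without the intensity trend (0.0634). The ADM call ended without wild type array 2 (0.0848) or 3 (0.0566) or knockdown array 2 (0.0841).

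The stress and transcription regulators included BHLHE40, ANKRD37 and DDIT4, the 3 members with the largest rise after knockdown, with 4 of 6 (66.7%) higher after knockdown against wild type, where 6.82% of all probe sets tested were. BHLHE40 (DEC1), a repressor of the circadian clock and of differentiation genes, gave 1623, 1368 and 1265 on the wild type arrays, 1872, 1713 and 1670.4 on the overexpression arrays and 3070.1, 2747 and 2850.5 on the knockdown arrays. The knockdown arrays were far above both other groups, by 1.03 (SE 0.12, 2.04-fold higher, limma adjusted p = 0.000528) against wild type and 0.72 (SE 0.12, 1.65-fold higher, limma adjusted p = 0.00363) against overexpression. DDIT4 (REDD1), which restrains the growth kinase mTORC1 under stress, gave 15802, 15924 and 14254 on the wild type arrays, 12068, 11511 and 11638 on the overexpression arrays and 26470.2, 25072 and 24864 on the knockdown arrays. The 3 groups did not overlap anywhere, with overexpression lowest and knockdown highest. Its log2 difference was 0.73 (SE 0.07, 1.66-fold higher, limma adjusted p = 0.000208) for knockdown against wild type, -0.38 (SE 0.07, 1.30-fold lower, limma adjusted p = 0.0469) for overexpression against wild type and 1.12 (SE 0.07, 2.17-fold higher, limma adjusted p = 2.02e-05) for knockdown against overexpression. The calls of BHLHE40 and DDIT4 in both knockdown comparisons held without any 1 array.

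ANKRD37, a small ankyrin repeat protein, gave 677, 634 and 549 on the wild type arrays, 814, 661 and 951 on the overexpression arrays and 1264, 1038 and 1079 on the knockdown arrays. Knockdown exceeded wild type by 0.86 (SE 0.17, 1.82-fold higher, limma adjusted p = 0.00759), held without any 1 array, and differed from overexpression by 0.49 (SE 0.17, adjusted p = 0.08), with 0.0428 under the replicate block. HILPDA, a lipid droplet protein that restrains fat breakdown, gave 5027, 4753 and 4787 on the wild type arrays, 5848, 5593 and 5291 on the overexpression arrays and 7184, 5991 and 6101 on the knockdown arrays. Its 3 groups stepped upward without overlap, with a knockdown difference from wild type of 0.40 (SE 0.09, 1.32-fold higher, limma adjusted p = 0.0168). The HILPDA call ended without wild type array 2 (0.0645) or 3 (0.052) or knockdown array 1 (0.0518), and on its second brightest probe set (0.192). NDRG1, a differentiation and stress protein, and MXI1, an antagonist of MYC, had no call, with knockdown differences from wild type of -0.21 (SE 0.12, adjusted p = 0.275) and -0.10 (SE 0.13, adjusted p = 0.65). NDRG1 differed from overexpression by -0.26 (SE 0.12, adjusted p = 0.184), with 0.0499 under the block.

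**Figure D4:**
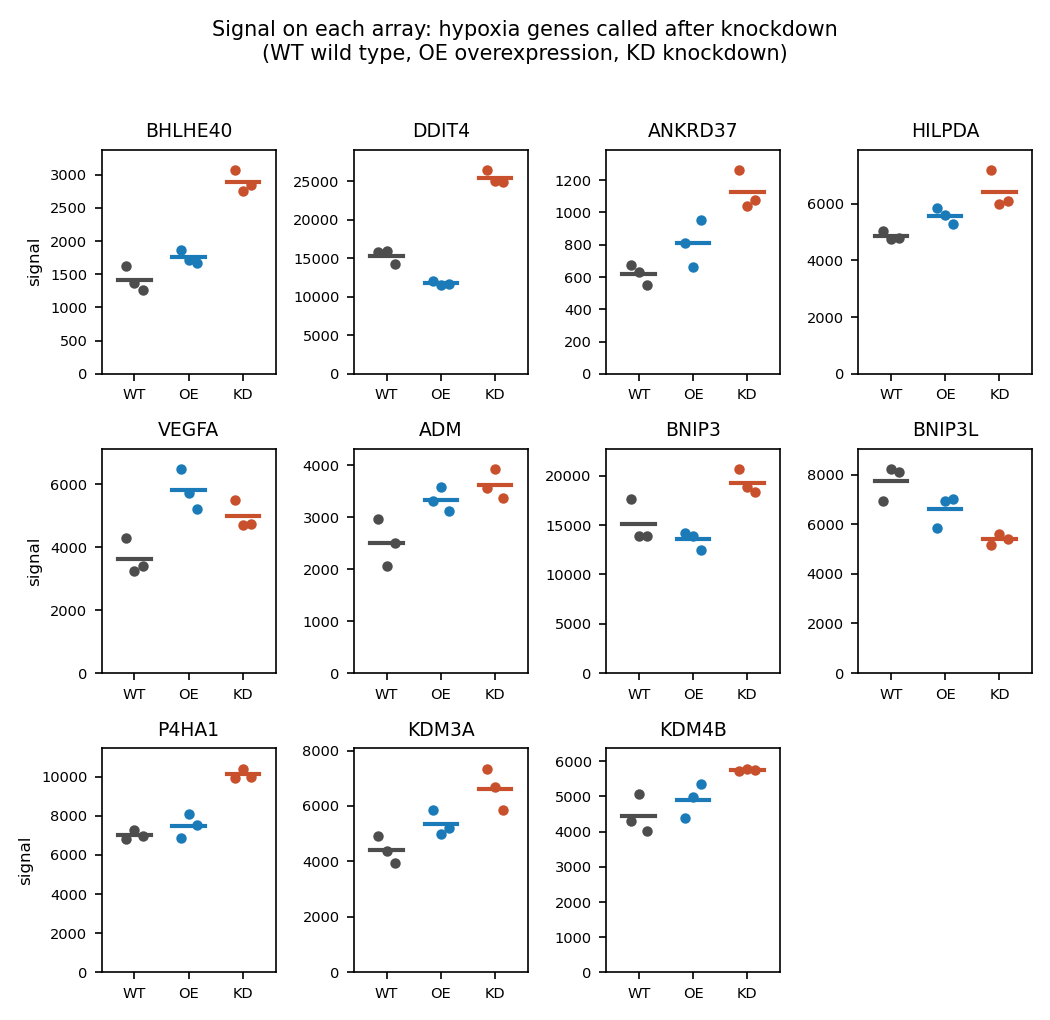
Signal (y axis, linear, from 0) on each array of the 11 hypoxia genes outside glycolysis that were called after knockdown against wild type, with replicates 1 to 3 from left to right in each group and the bar at the mean (WT wild type, OE overexpression, KD knockdown, n = 3 each). DDIT4 is lowest on overexpression arrays and highest on knockdown arrays, VEGFA is above wild type in both transfected groups, and BNIP3L is lowest on knockdown arrays.

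Overexpression changed few of the genes. VEGFA was the 1 member called higher (2.38%, against 0.319% of all probe sets tested) and DDIT4 the 1 called lower (2.38%, against 0.157%). At an unadjusted p under 0.05 there were 8 members, where 12.3% of all probe sets tested were, and the median log2 difference was 0.08 against 0.01 over all. The overexpression arrays were all above wild type for 8 members (9.92% of all probe sets tested) and all below for 3 (7.67% of all). With the replicate block the limma adjusted p was 0.000627 for VEGFA and 0.00481 for DDIT4. The block also raised the calls over all probe sets tested from 130 to 1022. The VEGFA call after overexpression ended without wild type array 2 (0.215) or 3 (0.203) or overexpression array 1 (0.146), 2 (0.112) or 3 (0.131), and with no filter on dim probe sets (0.0566), after quantile normalization (0.0547), after median centring (0.0535), without the intensity trend (0.118), in a fit of only those groups (0.135) or on its second brightest probe set (0.171). The DDIT4 call after overexpression ended without wild type array 1 (0.112), 2 (0.221) or 3 (0.0685) or overexpression array 1 (0.0908), 2 (0.118) or 3 (0.205), and with no filter on dim probe sets (0.0899), after quantile normalization (0.0557), with replicates 2 and 3 alone (0.0524), without the intensity trend (0.148) or in a fit of only those groups (0.156).

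Knockdown against overexpression compares the transfected groups with each other, though a plasmid and an siRNA were delivered. In it, 8 members were higher (19.0%, against 5.75% of all probe sets tested) and 1, PFKFB3, was lower (2.38%, against 8.76%). The higher ones were GPI, TPI1, PGAM1, LDHA, BNIP3, P4HA1, BHLHE40 and DDIT4, and 7 of these were also higher after knockdown against wild type, GPI being the exception. The median log2 difference was 0.14, against -0.01 over all, and 16 members were at an unadjusted p under 0.05, where 29.2% of all were. Knockdown arrays were all above overexpression arrays for 18 members (42.9%, against 14.9% of all) and all below for 4 (18.7% of all). With the replicate number as a block 18 members were called, 13 higher and 5 lower. Deviations of the same-numbered arrays of these groups correlated at 0.352, 0.237 and 0.106 for replicates 1, 2 and 3.

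The other genes of the pathways, none of them members, were read the same way, and these lists too were chosen with earlier results known. Among other genes of glycolysis and lactate, 9 of 19 were tested, and after knockdown against wild type 1 was higher and 1 lower (11.1% each way, near the 6.82% and 8.89% of all probe sets tested; median log2 difference 0.22). The higher one was BSG, a chaperone of lactate transporters, at 0.72 (SE 0.16, 1.65-fold higher, limma adjusted p = 0.0135). The lower one was PGM1, which links glycogen to glycolysis, at -0.31 (SE 0.09, 1.24-fold lower, limma adjusted p = 0.0323). The BSG call ended without knockdown array 2 (0.054) or 3 (0.0557). The PGM1 call ended without wild type array 1 (0.077) or 2 (0.106) or knockdown array 2 (0.0892) or 3 (0.118), and with no filter on dim probe sets (0.0617) or without the intensity trend (0.0863). Against overexpression TIGAR, which lowers the activator of phosphofructokinase, was the 1 gene called higher (11.1%, against 5.75% of all probe sets tested), at 0.27 (SE 0.08, 1.20-fold higher, limma adjusted p = 0.0434). That call ended without overexpression array 1 (0.0904) or 3 (0.149) or knockdown array 1 (0.0571), 2 (0.155) or 3 (0.105), and with no filter on dim probe sets (0.072), without the intensity trend (0.0838) or in a fit of only those groups (0.0798). Overexpression gave 0 calls of 9 by limma, with 1 gene at an unadjusted p under 0.05.

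Of the genes that bring pyruvate into mitochondria or control that step, those called after knockdown were lower, unlike PDK1. Of 12 tested, 0 were higher and 5 lower against wild type (41.7%, where 8.89% of all probe sets tested were called lower), with a median log2 difference of -0.29. PDK4, another inhibitor of pyruvate dehydrogenase, gave 811, 1163 and 1023 on the wild type arrays, 759, 1122 and 1015 on the overexpression arrays and 339.9, 346 and 329.7 on the knockdown arrays, and its knockdown arrays were far below the rest. The difference was -1.54 (SE 0.19, 2.92-fold lower, limma adjusted p = 0.000671) against wild type and -1.49 (SE 0.19, 2.81-fold lower, limma adjusted p = 0.000868) against overexpression. DLD, the dihydrolipoamide dehydrogenase subunit shared by several mitochondrial complexes, differed by -0.52 (SE 0.09, 1.44-fold lower, limma adjusted p = 0.00353), and MPC1, a subunit of the mitochondrial pyruvate carrier, by -0.42 (SE 0.08, 1.34-fold lower, limma adjusted p = 0.00619). The calls of PDK4, MPC1 and DLD held without any 1 array, and that of DLD ended on its second brightest probe set (0.0601). PDK2, a further kinase of the family, and the phosphatase PDP1, which reverses these kinases, were the other 2 called. The PDK2 call ended without wild type array 1 (0.0768), 2 (0.0542) or 3 (0.0752) or knockdown array 2 (0.0896) or 3 (0.0956), and on its second brightest probe set (0.269). Knockdown against overexpression also gave 0 higher and 5 lower (41.7% lower, where 8.76% of all probe sets tested were lower and 5.75% higher). In it DLD was at -0.53 (SE 0.09, 1.45-fold lower, limma adjusted p = 0.00346) and PDK2 at -0.72 (SE 0.13, 1.65-fold lower, limma adjusted p = 0.0046), the latter lost on its second brightest probe set (0.673). Overexpression against wild type gave 0 calls of 12 by limma, with 1 gene at an unadjusted p under 0.05.

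**Figure D5:**
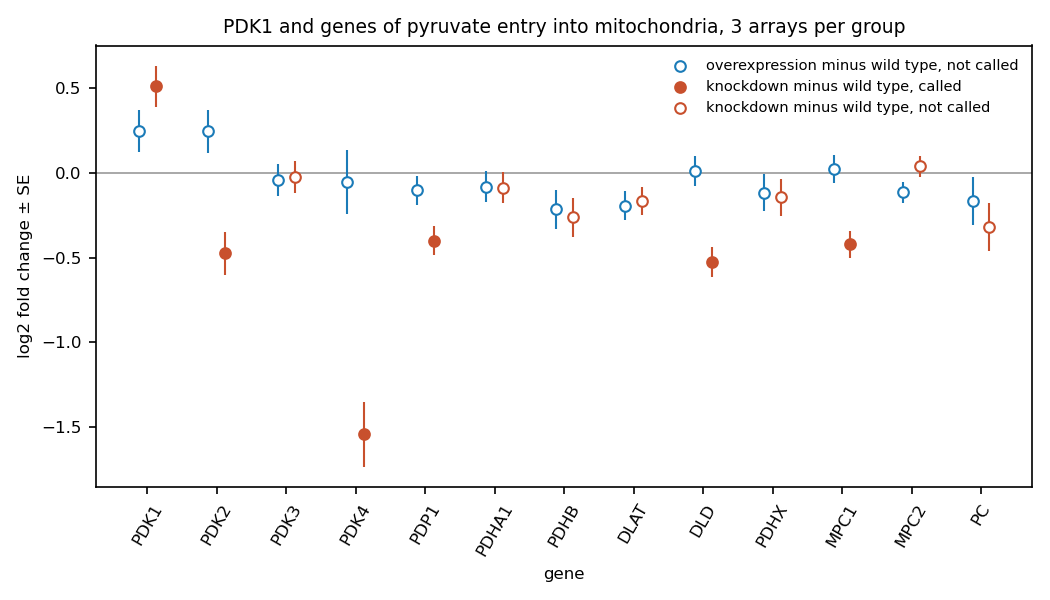
Log2 fold change against wild type (y axis, ± 1 SE, 3 arrays a group) of PDK1 and of 12 genes of pyruvate entry into mitochondria (x axis), for overexpression and knockdown; filled points passed limma's adjusted p threshold. PDK1 is the filled point above 0, and PDK2, PDK4, PDP1, DLD and MPC1 are filled below 0, with PDK4 lowest at -1.54.

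In the pentose phosphate pathway, which branches from glycolysis, 7 of 8 genes were tested, and 0 were higher and 2 lower after knockdown against wild type (28.6% lower, where 8.89% of all probe sets tested were lower and 6.82% higher; median -0.22). RPIA, the ribose phosphate isomerase, differed by -0.42 (SE 0.11, 1.34-fold lower, limma adjusted p = 0.0219). RPE, the ribulose phosphate epimerase, differed by -0.34 (SE 0.09, 1.27-fold lower, limma adjusted p = 0.0334). The RPIA call ended without wild type array 2 (0.094) or knockdown array 1 (0.0594), 2 (0.0511) or 3 (0.0676). The RPE call ended without wild type array 2 (0.107) or 3 (0.116) or knockdown array 1 (0.0644), 2 (0.107) or 3 (0.0798), and with no filter on dim probe sets (0.0537), without the intensity trend (0.0733) or on its second brightest probe set (0.157). Overexpression against wild type and knockdown against overexpression each gave 0 calls by limma, with 1 gene at an unadjusted p under 0.05 in each.

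Other parts of the oxygen-sensing machinery were lower where they were called after knockdown. Of 10 tested of 12, 0 were higher and 4 lower than wild type (40.0% lower, where 8.89% of all probe sets tested were lower and 6.82% higher), with a median log2 difference of -0.13. SENP1, a SUMO protease that acts on HIF1A, was at -0.56 (SE 0.13, 1.47-fold lower, limma adjusted p = 0.015), ARNT2, a paralog of ARNT, at -0.67 (SE 0.16, 1.59-fold lower, limma adjusted p = 0.0195), and CUL2, the scaffold of the VHL ligase, at -0.47 (SE 0.12, 1.39-fold lower, limma adjusted p = 0.025). HIF1AN, the asparagine hydroxylase of HIF, was the fourth. The SENP1 call ended without wild type array 3 (0.057) or knockdown array 3 (0.0589). The ARNT2 call ended without wild type array 1 (0.0509) or 2 (0.0533) or knockdown array 1 (0.0599) or 2 (0.0549), and with replicates 2 and 3 alone (0.0776). The CUL2 call ended without wild type array 1 (0.0581), 2 (0.0769) or 3 (0.0563) or knockdown array 1 (0.0749) or 3 (0.0777), and on its second brightest probe set (0.562). Against overexpression CITED2, a HIF target that competes with HIF for its coactivator, was higher at 0.72 (SE 0.20, 1.65-fold higher, limma adjusted p = 0.0352) and ARNT2 lower at -0.65 (SE 0.16, 1.57-fold lower, limma adjusted p = 0.022). That is 10% each way, near the 5.75% higher and 8.76% lower of all probe sets tested. The CITED2 call ended without overexpression array 1 (0.0778) or 3 (0.0634) or knockdown array 2 (0.113) or 3 (0.12), and without the intensity trend (0.0731). That of ARNT2 ended without overexpression array 1 (0.0661) or 2 (0.07) or knockdown array 1 (0.066) or 2 (0.0614), and with replicates 2 and 3 alone (0.111). Overexpression against wild type gave 0 calls of 10 by limma, with 0 genes at an unadjusted p under 0.05.

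Other known HIF targets rose where they were called after knockdown, with 6 of 23 tested genes higher and 0 lower than wild type (26.1% higher, against 6.82% of all probe sets tested; median 0.17). PLOD2, a collagen lysyl hydroxylase, was at 0.55 (SE 0.07, 1.47-fold higher, limma adjusted p = 0.000692), AK4, a mitochondrial adenylate kinase, at 0.53 (SE 0.09, 1.45-fold higher, limma adjusted p = 0.00287), and the chemokine receptor CXCR4 at 0.60 (SE 0.14, 1.52-fold higher, limma adjusted p = 0.0164). The PLOD2 and AK4 calls held without any 1 array, and that of CXCR4 ended without knockdown array 2 (0.0655) or 3 (0.0613). All overexpression arrays of CXCR4 were also above wild type, by 0.72 (SE 0.14, limma adjusted p = 0.0594, no call). Knockdown and overexpression differed by -0.12 (SE 0.14, limma adjusted p = 0.634) for CXCR4. Overexpression against wild type gave 1 call (4.35% higher, where 0.319% of all probe sets tested were higher and 0.157% lower). This was TFRC, the transferrin receptor for iron uptake, at 0.60 (SE 0.09, 1.52-fold higher, limma adjusted p = 0.0127). It ended without wild type array 2 (0.0609) or overexpression array 3 (0.0988), and without the intensity trend (0.0816) or in a fit of only those groups (0.0621). Between knockdown and overexpression 4 were higher (17.4%, against 5.75% of all probe sets tested) and 1 was lower (4.35%, against 8.76%). Among the higher were PLOD2 at 0.48 (SE 0.07, 1.40-fold higher, limma adjusted p = 0.00155) and AK4 at 0.53 (SE 0.09, 1.44-fold higher, limma adjusted p = 0.00326). The lower one was TFRC, at -0.64 (SE 0.09, 1.56-fold lower, limma adjusted p = 0.00121).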

How the data were processed

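Total RNA of 9 HEK293 samples was measured on 9 oligonucleotide arrays. Each probe set has 1 linear intensity per array, computed by the authors with MAS5 according to the submitters' processing notes. The version and settings of MAS5 are not stated in those notes, and detection calls were not used here. Global scaling hides a change in total RNA. The number of arrays limits the precision.

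Groups came from sample titles. The platform annotation gave 41097 of 54675 probe sets a single gene symbol, 1801 more than 1 and 11777 none; 41043 matched RefSeq and 0 symbols were updated. Signals became log2(signal + 1), and fold changes are on that scale. Leaving aside 62 controls, the 27307 probe sets with a mean of at least 7.564 (a signal of about 188) over the 9 arrays, the median of all, were tested in 1 fit by lmFit and eBayes of limma 3.58.1 (R 4.3.3; intensity trend on; two-sided; 6 residual degrees of freedom), with Benjamini-Hochberg adjustment over all of them and a threshold of 0.05. Figures were drawn with matplotlib 3.10.9. Tested on simulated data of 27307 probe sets for knockdown against wild type, the fit recovered 14 of 100 changes of 0.5 and 53 of 100 changes of 1 (log2), with 2 false calls.

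Deviations of same-numbered arrays correlated at 0.362, 0.144 and 0.137 (replicates 1, 2 and 3) for knockdown and wild type. For knockdown and overexpression the values were 0.352, 0.237 and 0.106. For overexpression and wild type they were 0.447, 0.16 and 0.083, so replicate 1 was highest in each comparison and replicate 3 weak. Values with the replicate block therefore stand beside the results where they change the call of a member. No 2 arrays held identical values.

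Every member is named, and each with a call is given on every array. Of the other lists, up to 3 called genes of smallest p are named per comparison, with further called genes by symbol only where few remained. The members and lists were chosen with earlier results of these data known. Promoters are from RefSeq (GRCh38.p14). The alternatives tried were a pseudocount of 16, other filters, quantile normalization, median centring, the replicate block, a term for the replicate 1 arrays, replicates 2 and 3 alone, eBayes without a trend, only the groups compared, each array left out, and the second brightest probe set.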

Additional observations from a re-analysis of the deposited data

How the results depend on the processing

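Direction held for every called member under every alternative run, and HK2, which had no call, was the 1 member that turned with a call: on its second brightest probe set knockdown against wild type was -1.11 (adjusted p = 0.0215), and the cause was not tested. For knockdown against wild type the 18 member calls became 11 without limma's intensity trend and 8 to 15 with each array left out, and the same 18 plus 5 others (23 in all) were called with the replicate block, HIF1A among them, and the 18 plus 5 with the term for the replicate 1 arrays, where ENO1 stood in its place. Over all probe sets that comparison went from 4289 calls to 7637 with the replicate block and 7706 with the replicate 1 term, and to 2213 to 3653 with arrays left out. For knockdown against overexpression the 9 member calls became 18 with the replicate block and with the replicate 1 term, 5 without the trend and 6 to 8 with arrays left out, and the 3963 calls over all became 7334, 7425 and, with arrays left out, 2040.0 to 3289. For overexpression against wild type the 2 member calls (8 at an unadjusted p under 0.05 in limma) became 0 with no filter, with quantile normalization, without the trend and in a fit of only those groups, 1 with median centring, replicates 2 and 3 alone or the second brightest probe set, and 0 to 1 with arrays left out. Over all probe sets its 130 calls became 1022 with the replicate block, 1109 with the replicate 1 term, 220 with replicates 2 and 3 alone, 70 without the trend, 27 with only those groups and 25 to 97 with arrays left out. Same-numbered overexpression and wild type arrays correlated at 0.447, 0.16 and 0.083 in their deviations, near the values of the other comparisons. The labels do not say what the number shares, so the block remains an alternative in every comparison. The cause of these shifts was not tested, apart from the fewer arrays that leaving one out or keeping only some replicates or groups implies. The replicate block changed no call of a member other than those given beside the results. Dim probe sets are noisier in MAS5 values. In the simulated data 14% of the changes of 0.5 (log2) were recovered, with 100 changes of each size placed among 27307 probe sets. Far more probe sets were called in the real data for knockdown, and 35 of the 42 members lay among the brightest 25%. The share recovered for genes like the members was not tested.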

Other observations

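Genes used only to check the identity of the cells also differed between groups. PAX2, a kidney developmental factor known in HEK293 cells, gave 369, 389 and 486 on the wild type arrays, 629.5, 558 and 667 on the overexpression arrays and 184, 191 and 211 on the knockdown arrays. Its log2 difference between knockdown and wild type was -1.07 (SE 0.20, 2.11-fold lower, limma adjusted p = 0.00513). The knockdown signals of PAX2 lay near the filter level of about 188, so the size of that fall is uncertain. LIN28B, an RNA-binding protein that blocks let-7 processing, gave 12553, 13188 and 13182 on the wild type arrays, 11030.3, 12015 and 11893 on the overexpression arrays and 15859.5, 16052 and 16048 on the knockdown arrays, and was higher after knockdown by 0.30 (SE 0.07, 1.23-fold higher, limma adjusted p = 0.0145). COL3A1, a fibroblast collagen, was dim throughout, with signals of 335, 285 and 276 on the wild type arrays, 309.5, 389.5 and 309.9 on the overexpression arrays and 229, 137 and 102 on the knockdown arrays, and the knockdown arrays were below the rest.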
